A study of Saccharomyces cerevisiae with 9 samples.

Results

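Yeast cells given HenGC, a GC preparation from hen of the woods (an edible mushroom), were compared with cells given the vehicle alone. The comparison used the 6 arrays that the labels call HenGC-treated 1 to 3 and vehicle control 1 to 3, out of 9 in the series. The strain throughout was BY4743, a diploid of Saccharomyces cerevisiae derived from S288C. HenGC was present at 40 ug/ml for 17 h before RNA was taken, and the labels give neither for the vehicle. The remaining 3 arrays, from cells given a soybean preparation (SoyGC) at the same dose and time, entered the fit for the shared estimate of the spread and for a direct comparison of the preparations. The labels do not spell out GC, which in sphingolipid work usually stands for glucosylceramide, and the title of the series speaks of a response to a sphingolipid. They also do not say whether the 3 samples of a group were separate cultures, so each p-value reflects the spread among these arrays alone, and that spread may be technical.

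Sphingolipids are membrane lipids built on a long-chain base. Budding yeast makes inositol-containing sphingolipids from ceramide and lacks a glucosylceramide synthase, while many other fungi and plants make glucosylceramide. Yeast cells that run short of glucose relieve glucose repression, switch on genes for other carbon sources and respiration, and turn on a general stress programme under the factors Msn2 and Msn4. Maltose genes need both the sugar-dependent MAL activator and relief from glucose repression.

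Levels are log2 fluorescence intensities relative to the 75th percentile of the array, so a negative level lies below that percentile, and a difference of 1 is a 2-fold change. Differences are HenGC minus vehicle with the standard error (SE) of the limma fit to all 9 arrays. A gene passed where its p, adjusted by Benjamini-Hochberg across the 5820 genes tested, was under 0.05. Apart from percentiles given for strain markers, levels are not compared between genes.

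On the 6 arrays 92.8% to 95.8% of spots lay well above background and 0 spots were saturated. The strain's deleted marker genes HIS3, LEU2 and URA3 were above background on 0 arrays. Of 16 haploid-specific genes, which a diploid represses, 13 were above background on all 9 arrays, as were the housekeeping genes ACT1 and TDH3. Mean levels of the 16 lay between percentile 4.7 and 33.2 of genes on the array, against 99.0 for ACT1 and 99.7 for TDH3. Vehicle 3 stood apart: it correlated with vehicle 1 and 2 across genes at 0.977 and 0.979, against 0.998 between those, and 503 of its 515 genes over 2-fold from their mean were lower. HenGC 1 and 2 were alone on a slide, vehicle 1 and 2 shared another with SoyGC 1 and 2, and replicate 3 of every group shared a slide scanned on a second day. On scan day 1 slide and group therefore cannot be told apart, and the only within-slide contrast is of 1 array against 1.

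In HenGC, 69 genes passed, or 1.19% of those tested: 53 were higher (0.911%) and 16 lower (0.275%). The rises ran from 0.54 to 1.66 on the log2 scale, the falls from -0.57 to -1.49, and 18 genes moved by at least 2-fold, 15 up and 3 down. The genes that rose included maltases and maltose transporters, small heat-shock and other stress proteins, respiratory and glycerol-use enzymes, redox enzymes and a few genes of sulfur metabolism. Those that fell included the ammonium permease MEP1, the peptide transporter PTR2, both alpha-factor genes and cell cycle genes of G1 and S phase. The groups did not overlap at any of the 69 genes, against 30.0% of all genes tested, 12.2% with HenGC above and 17.8% with HenGC below. The 69 were selected on these same arrays, which favours such separation, so it is no added support. On the second scan day, with 1 array a group, the differences were between 0.30 and 2.67 in size.

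How many genes passed depended on single arrays. Without vehicle 3, limma passed 50 genes (0.859%), 44 higher (0.756%) and 6 lower (0.103%), of which 41 were among the 69. Without vehicle 1 or 2 it passed 16 and 3, and without HenGC 1, 2 or 3 it passed 5, 9 and 23. Without SoyGC 1, 2 or 3 it passed 34, 36 and 25. Leaving out a SoyGC array leaves every HenGC minus vehicle difference unchanged and alters only the estimate of the spread, which then rests on fewer arrays. FMP16, STR3 and YMR206W passed in all 9 of these fits, MAL12 in 8, and MAL32, MF(ALPHA)2, MRK1 and OM45 in 7, whereas 21 of the 69 passed in none of them. With the slide as a fixed block 0 genes passed in limma, with 478 at an unadjusted p under 0.05. HenGC 1 and 2 are alone on their slide, so in that fit the HenGC difference rests on HenGC 3 alone. Its low count therefore follows in part from the layout. In the authors' unscaled table limma passed 3, all of them higher.

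**Figure D1:**
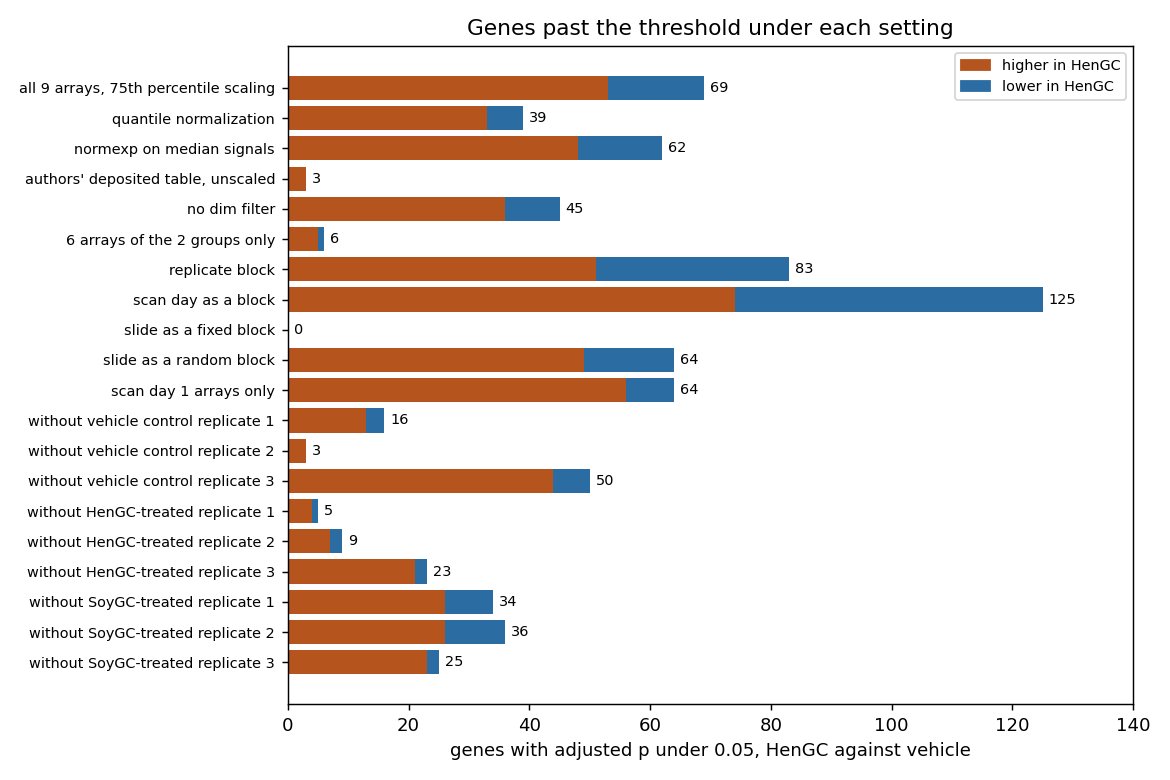
Number of genes past an adjusted p of 0.05 for HenGC against vehicle under each setting, with bars split into genes higher (orange) and lower (blue) in HenGC. The fit to all 9 arrays gives 69 genes, leaving out 1 array gives between 3 and 50, and the slide as a fixed block gives 0; the fit with array weights, which gives 875, is not drawn.

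The largest rises were in maltose genes. MAL12, a maltase, which splits maltose into glucose, stood at -5.24, -5.20 and -5.39 in vehicle 1 to 3 and at -3.76, -3.31 and -3.77 in HenGC 1 to 3. All 3 HenGC arrays thus lay well above the vehicle range, 3.17-fold on average (log2 1.66 ± 0.18, adjusted p = 0.00721). MAL32, the maltase gene of a second MAL locus, was at -5.72, -5.74 and -5.83 in vehicle and at -4.25, -3.84 and -4.42 in HenGC (1.60 ± 0.18, adjusted p = 0.0084). MAL12 and MAL32 are near-identical in sequence, so their signals cannot be assigned to either gene with certainty, and they are not independent observations.

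MAL31, a maltose permease, was at -0.80, -0.93 and -0.89 in vehicle and at 0.54, 0.75 and 0.01 in HenGC (1.31 ± 0.20, adjusted p = 0.0276), with HenGC 3 the nearest to the vehicle arrays. MAL11, a transporter of maltose and other alpha-glucosides that neighbours MAL12 in the R64 gene table, was at -2.65, -2.77 and -2.47 in vehicle and at -1.73, -1.56 and -1.85 in HenGC (0.92 ± 0.12, adjusted p = 0.0168). The genes for the MAL activators did not pass: MAL33 differed by 0.31 ± 0.17 (adjusted p = 0.311) and MAL13 by -0.13 ± 0.12 (adjusted p = 0.524), and the MAL13 groups overlapped. In all, 4 of 13 maltose genes rose and 0 fell, with a median difference of 0.32 over the 13. Over all genes tested 0.911% rose and 0.275% fell, the median was 0.00, and 2912 differences were positive and 2908 negative. The list counts below stand beside these shares, and 1 gene past the threshold is no result about its list. The maltose median was 0.54 on scan day 1, -0.07 on scan day 2, with 1 array a group, and 0.08 with the slide as a fixed block. The latter values both rest on HenGC 3 as the only HenGC array, so they are not separate checks. The same 4 genes passed without vehicle 3, but 0 of the 13 passed without vehicle 2, 1 without HenGC 1, 2 without HenGC 2 and 2 without vehicle 1.

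**Figure D2:**
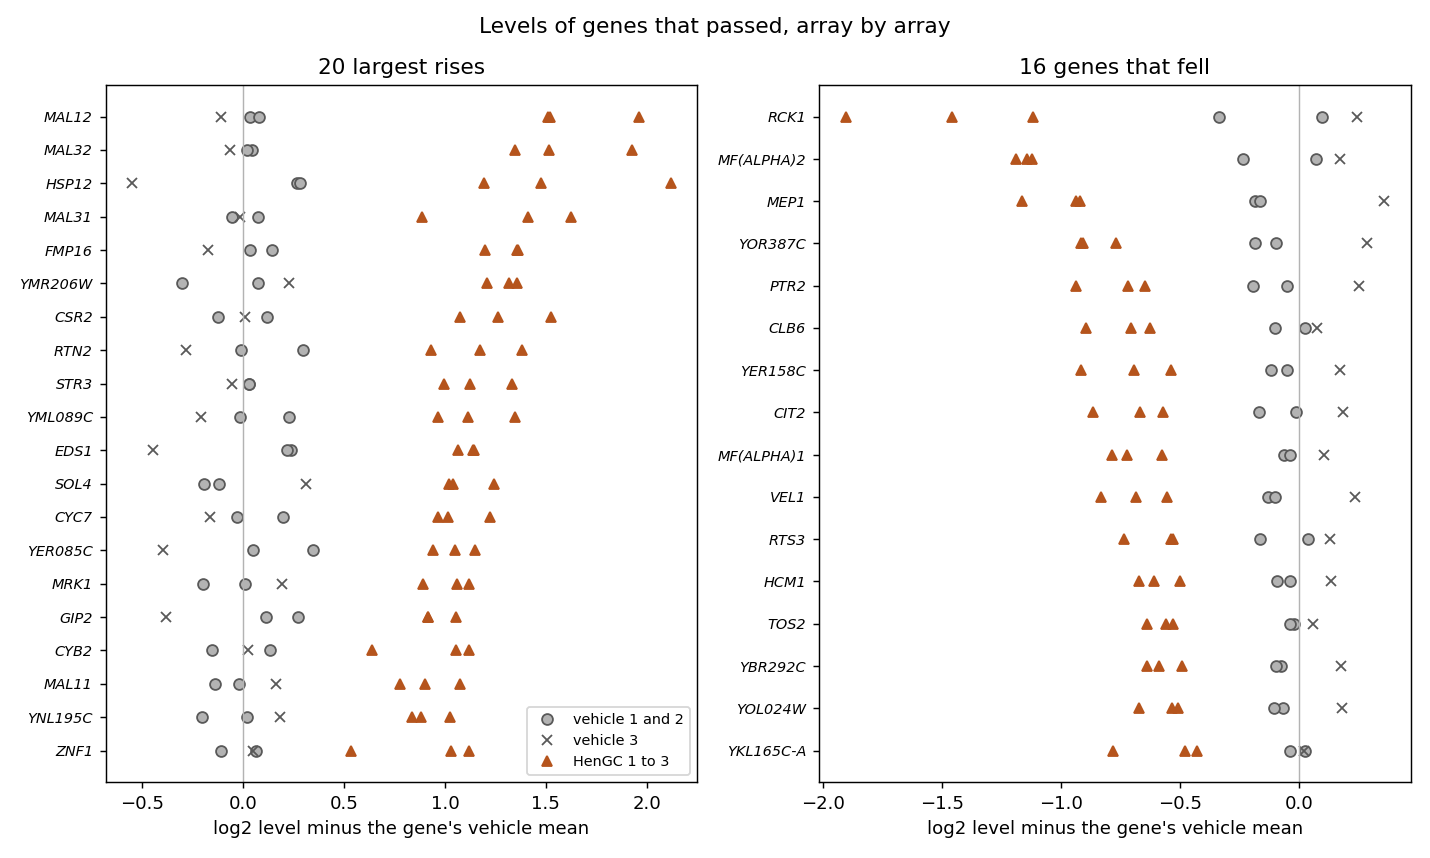
Level of each array minus the gene's vehicle mean (log2) for the 20 genes that rose most and the 16 that fell, with vehicle 1 and 2 as grey circles, vehicle 3 as crosses and HenGC arrays as orange triangles. The triangles and the vehicle symbols do not overlap for any gene, which the selection of these genes on the same arrays favours. Vehicle 3 lies farthest from the HenGC arrays for HSP12, EDS1 and MEP1 among others.

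Among 47 general stress genes, 10 rose and 0 fell, beside 0.911% and 0.275% of all genes tested. Their median difference was 0.41. Without vehicle 3, 9 rose, but not all of them were among those 10, since HSP12 and SIP18 no longer passed. HSP12, a small membrane-associated stress protein, was at 2.11, 2.12 and 1.29 in vehicle and at 3.31, 3.03 and 3.96 in HenGC (1.60 ± 0.30, adjusted p = 0.0478). The gap rested partly on replicate 3, with the lowest vehicle value and the highest HenGC value: the difference was 1.06 on scan day 1 and 2.67 on scan day 2. Without vehicle 3 the HSP12 difference was 1.32 and its adjusted p 0.0636, and over all alternatives limma's adjusted p ran from 0.00269 to 0.434.

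Other stress genes varied less within the groups. OM45, a protein of the mitochondrial outer membrane, was at 1.05, 0.90 and 1.09 in vehicle and at 1.92, 1.73 and 1.81 in HenGC (0.81 ± 0.09, adjusted p = 0.0084). RTN2, a reticulon of the endoplasmic reticulum, went from -0.29, -0.60 and -0.87 to 0.59, 0.80 and 0.35 (1.16 ± 0.17, adjusted p = 0.0253). SOL4, a 6-phosphogluconolactonase of the pentose phosphate pathway, went from 0.71, 0.63 and 1.14 to 1.87, 1.85 and 2.07 (1.1 ± 0.14, adjusted p = 0.015), and here vehicle 3 was the vehicle array nearest to HenGC. NQM1, a transaldolase of the same pathway, rose by 0.68 ± 0.09, so 2 of 11 pentose phosphate genes rose, and both are stress genes too. MSC1, RTC3 and the phospholipid-binding SIP18 rose by 0.81 ± 0.12, 0.54 ± 0.10 and 0.74 ± 0.13. Of these, SIP18 did not pass without vehicle 3 (adjusted p = 0.0686). The stress count fell to 0 without vehicle 2 or HenGC 1, to 1 without HenGC 2, to 3 without vehicle 1 or HenGC 3, and to 5 or 6 without 1 SoyGC array.

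Of 33 chaperone genes 3 rose and 0 fell, beside 0.911% and 0.275% of all genes tested. Their median difference was 0.31, or 0.18 without vehicle 3. HSP26, a small heat-shock protein that binds unfolded proteins and is also in the stress list, rose by 0.65 ± 0.12, from 3.84, 4.0 and 4.06 to 4.44, 4.69 and 4.70. HSP30, a membrane protein that acts on the plasma membrane proton pump, rose by 0.58 ± 0.09, and HSP31, which detoxifies methylglyoxal, by 0.73 ± 0.13. The larger disaggregase and Hsp90-type chaperones did not pass: HSP104 stood at 2.85, 2.80 and 2.08 in vehicle and 3.22, 3.21 and 3.07 in HenGC, with an adjusted p of 0.175. HSP82 differed by 0.71 ± 0.21 (adjusted p = 0.134). Without vehicle 3 the HSP104 difference was 0.34 and that of HSP82 0.46. Except for the fit without vehicle 3, which kept 3, leaving out 1 array left 0 or 1 chaperone genes past the threshold.

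Several regulators and enzymes of respiratory growth rose. CYC7, the cytochrome c isoform made at low oxygen and in stress, was at 0.79, 0.56 and 0.42 in vehicle and at 1.81, 1.55 and 1.61 in HenGC (1.07 ± 0.15, adjusted p = 0.0187). CYB2, the lactate dehydrogenase that passes electrons to cytochrome c, was at -1.35, -1.64 and -1.46 in vehicle and at -0.36, -0.85 and -0.43 in HenGC (0.94 ± 0.16, adjusted p = 0.0401). These were the 2 of 45 respiratory chain genes that rose, beside 0.911% of all genes tested. Of the 45, 39 had a positive difference, beside 2912 of all 5820. The median was 0.27, or 0.24 without vehicle 3. Without vehicle 3, CYC7 and NDE2 passed and CYB2 did not. CYC7 alone passed without vehicle 1 or any 1 SoyGC array, and 0 of the 45 passed without vehicle 2 or any 1 HenGC array. CBP4, an assembly factor of the cytochrome bc1 complex that is not in that list, rose by 0.88 ± 0.14.

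ZNF1, a zinc cluster factor for respiratory genes, rose by 0.90 ± 0.16. CAT8, an activator of gluconeogenic genes, was at -1.70, -2.02 and -2.03 in vehicle and at -0.90, -1.21 and -1.34 in HenGC (0.77 ± 0.14, adjusted p = 0.0451). USV1, a factor for growth on non-fermentable carbon, rose by 0.55 ± 0.10, and the related genes ISF1 and MBR1, which act in mitochondrial function, by 0.76 ± 0.10 and 0.74 ± 0.12. MTH1, a corepressor in glucose sensing that keeps hexose transporter genes off, rose by 0.69 ± 0.12. GID10, a substrate receptor of the ubiquitin ligase that degrades gluconeogenic enzymes, rose by 0.69 ± 0.13. Of these, CAT8, ZNF1, MTH1, GID10 and CYB2 no longer passed without vehicle 3, with adjusted p between 0.0544 and 0.0912.

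Transporter genes that CAT8 is known to activate were not among those that rose. JEN1, the lactate permease, stood at -1.02, -1.02 and -0.43 in vehicle and at -1.68, -3.29 and -2.35 in HenGC, lower on every HenGC array but with a wide spread (-1.62 ± 0.35, adjusted p = 0.0647). ADY2, an acetate transporter, stood at -3.48, -3.08 and -3.45 in vehicle and at -3.97, -6.07 and -5.26 in HenGC (-1.77 ± 0.43, adjusted p = 0.0895), the lowest difference of any gene tested although it did not pass. HenGC 1 was the array nearest to vehicle for both. CAT8 was the only 1 of 16 genes of the glyoxylate cycle, gluconeogenesis and acid uptake that passed, and the list's median difference was -0.10, or -0.35 on scan day 1 and 0.15 on scan day 2.

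GUT1, glycerol kinase, and GUT2, the mitochondrial glycerol-3-phosphate dehydrogenase, rose by 0.57 ± 0.11 and 0.86 ± 0.16 (adjusted p = 0.0496 and 0.0489), and these carry glycerol into central metabolism. GUT2 was at -1.98, -2.09 and -2.46 in vehicle and at -1.16, -1.36 and -1.44 in HenGC. They were 2 of 15 glycerol genes, and leaving out any 1 of the 9 arrays left 0 of the 15 past the threshold. GPP1, a phosphatase that makes glycerol, differed by -0.40 ± 0.09 and did not pass (adjusted p = 0.0673). GIP2, a regulatory subunit of the Glc7 phosphatase linked to glycogen, was the 1 of 22 trehalose and glycogen genes that rose, by 0.96 ± 0.19, and its adjusted p was 0.0496 with vehicle 3 and 0.0584 without it.

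Redox enzymes rose by small amounts. Of 36 antioxidant and redox genes 4 rose and 0 fell, beside 0.911% and 0.275% of all genes tested. Their median difference was 0.16, and 2 rose without vehicle 3. PRX1, the mitochondrial peroxiredoxin, was at 1.25, 1.21 and 1.38 in vehicle and at 1.96, 1.94 and 1.88 in HenGC (0.65 ± 0.11, adjusted p = 0.0338). ECM4, a glutathione transferase, rose by 0.58 ± 0.10, MXR1, which reduces oxidised methionine, by 0.68 ± 0.12, and OYE3, an NADPH oxidoreductase, by 0.80 ± 0.15. GPX1, a glutathione peroxidase, and YSA1, a nudix hydrolase of ADP-ribose, rose by 0.75 ± 0.14 and 0.55 ± 0.09. The cytosolic catalase CTT1 did not pass (0.52 ± 0.14, adjusted p = 0.112). Leaving out any array other than vehicle 3 left 0 or 1 of the 36 genes past the threshold.

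In sulfur amino acid metabolism 3 of 36 genes rose and 0 fell, beside 0.911% and 0.275% of all genes tested, while the median difference was -0.00. STR3, a cystathionine beta-lyase that makes homocysteine, was at -3.24, -3.24 and -3.32 in vehicle and at -2.14, -2.27 and -1.93 in HenGC (1.15 ± 0.10, adjusted p = 0.00649). MET28, a cofactor of the activator Met4, was at -2.25, -2.16 and -2.05 in vehicle and at -1.63, -1.38 and -1.19 in HenGC (0.75 ± 0.13). MUP3, a low-affinity methionine permease, rose by 0.82 ± 0.15, against a median of -0.23 over 22 amino acid permeases. STR3 passed whichever array was left out, MET28 in 1 and MUP3 in 2 of the 9 such fits.

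Some of the steadiest rises were in FMP16 and YMR206W, genes of little known function. FMP16, found in mitochondria, was at 0.53, 0.42 and 0.21 in vehicle and at 1.75, 1.58 and 1.74 in HenGC (1.30 ± 0.12, adjusted p = 0.00649). YMR206W, an uncharacterised gene, was at -2.59, -2.96 and -2.43 in vehicle and at -1.45, -1.30 and -1.34 in HenGC (1.29 ± 0.13, adjusted p = 0.00721). The HenGC arrays lay close together for both genes, while the vehicle arrays of YMR206W were spread more widely. CSR2, an arrestin-related adaptor for the turnover of transporters, was at -3.23, -3.47 and -3.34 in vehicle and at -2.27, -1.82 and -2.08 in HenGC (1.29 ± 0.19, adjusted p = 0.0256). MRK1, a kinase of the GSK-3 family, was at -1.35, -1.55 and -1.16 in vehicle and at -0.30, -0.46 and -0.23 in HenGC (1.02 ± 0.12, adjusted p = 0.0084).

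EDS1, a putative zinc cluster factor, rose by 1.11 ± 0.19, with vehicle 3 at -3.56 well below vehicle 1 and 2 at -2.87 and -2.89. ATG39, a receptor for autophagy of the nuclear envelope, was the 1 of 37 autophagy and vacuolar protease genes that rose (0.59 ± 0.11, adjusted p = 0.0478), and it did not pass without vehicle 3 (adjusted p = 0.0691). The rest of the higher genes were YML089C (1.14), YER085C (1.05), YNL195C (0.91), MLG1 (0.89), DSF1 (0.84), YDR491C (0.80), YOR186W (0.80), FMP33 (0.77) and the aldo-keto reductase YJR096W (0.62). YML089C was above background on 3 HenGC arrays but only 2 vehicle arrays, so its vehicle level lay near background. Of all 69 genes, 40 were in at least 1 of the 47 lists, which hold 1450 genes, and 29 in none.

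Among the genes that fell, the largest change was in RCK1, a protein kinase of the oxidative stress response. RCK1 stood at -4.75, -5.18 and -4.60 in vehicle and at -6.75, -6.30 and -5.96 in HenGC (-1.49 ± 0.22, adjusted p = 0.0256), and HenGC 3 was the nearest to vehicle. MEP1, an ammonium permease under nitrogen control, was at 0.59, 0.61 and 1.13 in vehicle and at -0.39, -0.17 and -0.15 in HenGC (-1.01 ± 0.16, adjusted p = 0.0276). PTR2, which imports di- and tripeptides, was at 0.77, 0.91 and 1.22 in vehicle and at 0.03, 0.25 and 0.32 in HenGC (-0.77 ± 0.14, adjusted p = 0.0425). For both transporters vehicle 3 was the highest array.

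MEP1 and PTR2 were the 2 of 36 genes under nitrogen catabolite repression that fell, beside 0.275% of all genes tested. Their list had a median difference of -0.30, with 30 of 36 values negative, beside 2908 of all 5820. Without vehicle 3 MEP1 alone passed while the median was -0.27. GAT1, an activator of these genes, differed by -0.62 ± 0.13 (adjusted p = 0.064), the urea transporter DUR3 by -0.67 ± 0.18 (adjusted p = 0.104) and DAL7, an allantoin pathway gene, by -1.0 ± 0.27 (adjusted p = 0.11). None of these 3 passed. The HenGC arrays lay below the vehicle arrays at each, as they did at 17.8% of all genes tested. These 3 were named for a small p in the list, which favours such separation. Leaving out SoyGC 2 gave 3 of the 36 past the threshold, SoyGC 1 or vehicle 3 gave 1, and each of the other arrays gave 0.

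The alpha-factor genes fell. MF(ALPHA)2 was at -5.36, -5.05 and -4.95 in vehicle and at -6.31, -6.26 and -6.24 in HenGC (-1.15 ± 0.12, adjusted p = 0.00721). MF(ALPHA)1 was at -5.80, -5.78 and -5.64 in vehicle and at -6.32, -6.46 and -6.52 in HenGC (-0.70 ± 0.12, adjusted p = 0.0401), and it did not pass without vehicle 3 (adjusted p = 0.0635). These genes encode the same pheromone and share sequence, so their signals may overlap. Both were above background on every array, although the strain is a diploid. Their mean levels were low, at percentile 11.3 for MF(ALPHA)2 and 10.05 for MF(ALPHA)1 of genes on the array. Over the alternatives the MF(ALPHA)2 difference ran from -1.32 to -0.67 and that of MF(ALPHA)1 from -0.84 to -0.32. These were the 2 of 26 mating and haploid-specific genes that fell, beside 0.275% of all genes tested, and the median of the 26 was -0.19. With another background correction, normexp on median signals, 1 of the 26 fell and the median was -0.08. Neither alpha-factor gene passed without vehicle 2 or HenGC 1. The agglutinin gene SAG1, at -0.74 ± 0.16, did not pass (adjusted p = 0.064).

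Of 41 genes of G1/S and DNA replication 3 fell and 0 rose, beside 0.275% and 0.911% of all genes tested. Their median difference was -0.24. CLB6, an S-phase cyclin, was at -3.32, -3.45 and -3.27 in vehicle and at -4.05, -4.24 and -3.97 in HenGC (-0.74 ± 0.11, adjusted p = 0.0256). TOS2, a bud-site protein of the G1/S programme, was at -3.30, -3.32 and -3.22 in vehicle and at -3.84, -3.92 and -3.81 in HenGC (-0.58 ± 0.10, adjusted p = 0.0394). HCM1, a forkhead factor of S phase, fell by 0.59 (adjusted p = 0.044). Without vehicle 3, CLB6 alone of the 3 passed, although the median was then -0.30. RNR1, the large subunit of ribonucleotide reductase, lay at 1.98 to 2.06 in vehicle and 1.43 to 1.48 in HenGC without passing (-0.57 ± 0.12, adjusted p = 0.0623). None of the 3 genes passed without vehicle 1 or 2 or without any 1 HenGC array.

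CIT2, the peroxisomal citrate synthase and a target of the mitochondrial retrograde pathway, was at 1.80, 1.96 and 2.16 in vehicle and at 1.11, 1.30 and 1.40 in HenGC (-0.70 ± 0.13, adjusted p = 0.0496). It was the 1 of 22 genes of that list that fell, and it did not pass without vehicle 3. YOR387C and its close relative VEL1 were at -0.87 ± 0.13 and -0.69 ± 0.13, and signals of such a pair may overlap. The phosphatase-linked RTS3, YER158C, YBR292C, YOL024W and YKL165C-A made up the rest, between -0.57 and -0.72. YKL165C-A was above background on 3 vehicle arrays but only 1 HenGC array, so it entered the test without a bright HenGC group. It passed in 2 of 20 alternatives. Across the 16 lower genes 5 passed without vehicle 3.

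**Figure D3:**
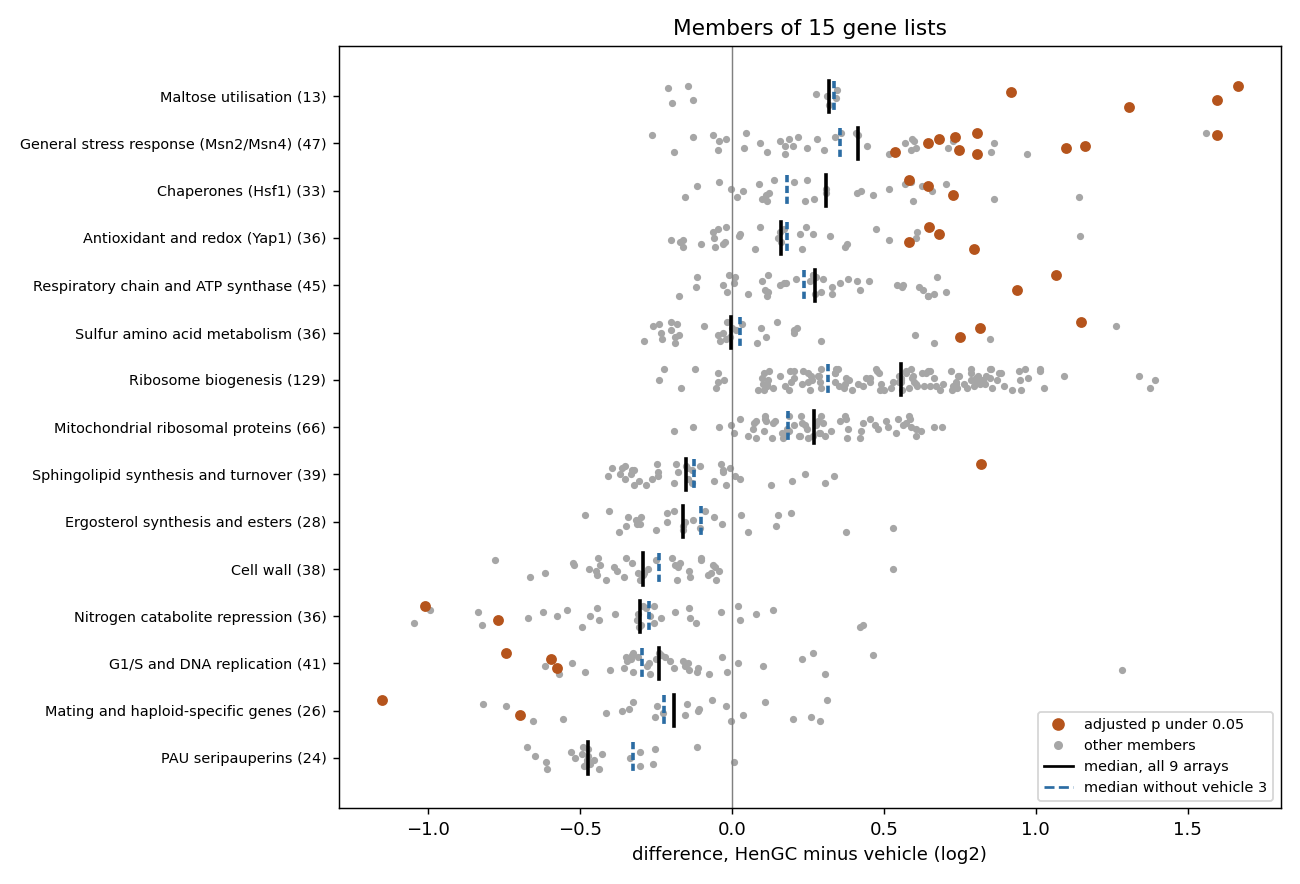
Differences (log2, HenGC minus vehicle) of the members of 15 gene lists, with the number of genes tested in parentheses, genes past the threshold in orange, and each list's median with all arrays (black) and without vehicle 3 (blue dashes). Ribosome biogenesis has a median of 0.56 that is 0.32 without vehicle 3, and 0 of its 129 genes passed.

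The series is about a sphingolipid, so the yeast genes of sphingolipid synthesis and turnover were followed one by one. Of 39 genes 1 rose and 0 fell: YPC1, a ceramidase that can also run in reverse and make ceramide, at -1.20, -1.11 and -1.0 in vehicle and -0.08, -0.18 and -0.59 in HenGC (0.82 ± 0.16, adjusted p = 0.0496). Over all genes tested 0.911% rose, so 1 gene of 39 is no result about the list. YDC1, the enzyme related to YPC1, differed by 0.03 ± 0.13 (adjusted p = 0.914). YPC1 did not pass without vehicle 3 (adjusted p = 0.0622), and over all alternatives its adjusted p ran from 0.00148 to 0.536. HenGC 3 was the closest to vehicle, and the YPC1 difference was 1.03 on scan day 1 and 0.41 on scan day 2.

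The other 38 genes lay between -0.41 and 0.34. Of the 39, 31 were negative, beside 2908 of all 5820 genes tested, and the median was -0.15, or -0.13 without vehicle 3. ORM1, an inhibitor of serine palmitoyltransferase, was at 0.53, 0.53 and 0.75 in vehicle and at 0.35, 0.21 and 0.20 in HenGC (-0.35 ± 0.10, adjusted p = 0.127). The ceramide synthase LAC1 differed by -0.33 ± 0.10 (adjusted p = 0.142), its partner LAG1 by -0.13 ± 0.11, the reductase TSC10 by -0.32 ± 0.11 and the hydroxylase SUR2, which makes phytosphingosine, by -0.40 ± 0.14. ISC1, the phospholipase that releases ceramide from inositol sphingolipids, had the lowest value, -0.41 ± 0.14 (adjusted p = 0.162).

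The serine palmitoyltransferase subunits LCB1 and LCB2 differed by -0.24 ± 0.10 and -0.04 ± 0.16, and AUR1, which makes inositol phosphorylceramide, by -0.24 ± 0.12. The long-chain base kinases LCB4 and LCB5 and the lyase DPL1 had differences of -0.01, 0.01 and -0.06. TSC3, a small subunit that stimulates serine palmitoyltransferase, had the highest value after YPC1, but it was 0.34 with vehicle 3 and -0.04 without it. For RSB1, a long-chain base transporter, the values were 0.24 and 0.53. None of these genes passed in either fit, and the 95% intervals were wide for many of them, as the plot of these genes shows.

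**Figure D4:**
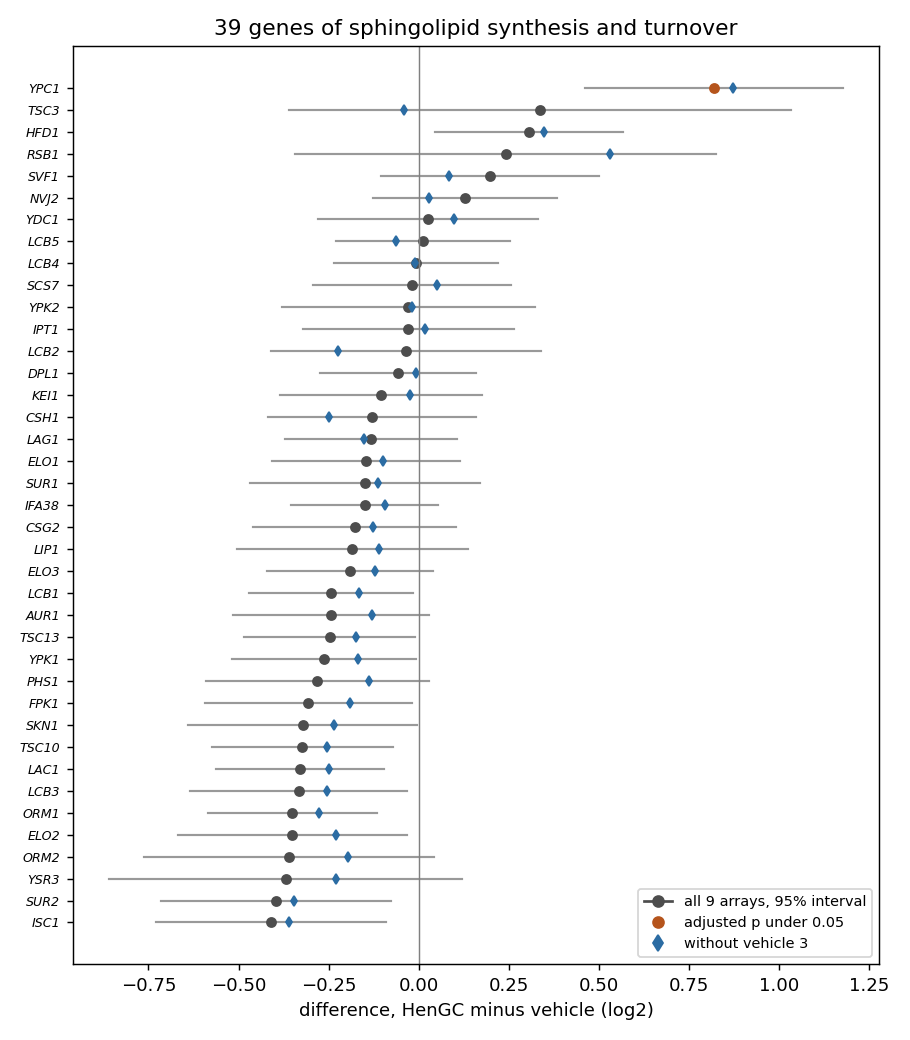
Difference (log2, HenGC minus vehicle) of each of 39 sphingolipid genes with its 95% interval in the fit to all 9 arrays, and the difference without vehicle 3 as a blue diamond. YPC1, in orange, is the 1 gene that passed, at 0.82, and the others lie between -0.41 and 0.34.

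Some lists had shifted medians but held no gene past the threshold, among them ribosome biogenesis, mitochondrial ribosomal proteins, cell wall and PAU genes. Ribosome biogenesis had a positive difference at 121 of 129 genes, beside 2912 of all 5820 genes tested. Yet vehicle 3 lay at a median of -0.74 relative to vehicle 1 and 2 on this list. The list's median was 0.34 on scan day 1 and 0.98 on scan day 2. IMP4 and DHR2, which process the small-subunit RNA, had the smallest p of the list and differed by 0.59 ± 0.13 and 0.74 ± 0.16 (adjusted p = 0.064 and 0.0679). Mitochondrial ribosomal proteins had a median of 0.27, and 0.18 without vehicle 3, with 62 of 66 positive. The cytosolic ribosomal proteins, 136 genes, had a median of -0.01, or 0.04 on scan day 1 and -0.15 on scan day 2.

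In the other direction, 37 of 38 cell wall genes had a negative difference, beside 2908 of all 5820 genes tested. Their median was -0.29, or -0.24 without vehicle 3. FKS1, a glucan synthase subunit, was at 2.29, 2.11 and 2.29 in vehicle and at 1.87, 1.82 and 1.76 in HenGC (-0.41 ± 0.09, adjusted p = 0.0659). SCW11, a glucanase of daughter cells, had the smallest p of the list (-0.44 ± 0.09, adjusted p = 0.0597). The PAU genes, a family of 24 tested cell wall mannoproteins that are near-identical in sequence and so share signal, had a median of -0.47, which was -0.33 without vehicle 3. Ergosterol genes had a median of -0.16 over 28 genes. How far vehicle 3 or the slides set these medians was not tested beyond the values given.

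Because vehicle 3 moved the calls, the genes that passed without it alone were also listed. There were 9: MDG1, YKL091C, ALD3, RRT8, NDE2, FMP46, GOR1 and GAD1 were higher, with differences of 0.55 to 0.79 in that fit, and PLM2 was lower, at -0.55. NDE2, a mitochondrial NADH dehydrogenase, differed by 0.65 with all arrays (adjusted p = 0.0692) and by 0.76 without vehicle 3 (adjusted p = 0.0436). ALD3, a stress-induced aldehyde dehydrogenase, differed by 0.60 and 0.71 (adjusted p = 0.064 and 0.0294). GAD1, glutamate decarboxylase, was at 1.31, 1.31 and 1.71 in vehicle and at 1.88, 1.90 and 1.89 in HenGC. Vehicle 3 was the vehicle array nearest to HenGC for every one of these 9 genes except MDG1.

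HenGC and SoyGC were given at the same dose and time, and in the direct comparison 0 of 5820 genes passed limma's test, with 736 at an unadjusted p under 0.05. SoyGC differed from the same vehicle arrays at 538 genes (9.24%). All 69 genes that passed in HenGC had the same sign in SoyGC against vehicle, and 39 of them passed there, 28 higher and 11 lower. The comparisons with vehicle share the vehicle arrays, which favours a shared sign, so their values are given side by side only. The 69 genes were chosen for a difference in HenGC, so the intervals below describe them and are no independent test. For 34 of the 69 the 95% interval of HenGC minus SoyGC included 0, and for 35 it did not.

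For the maltases the preparations were close: MAL12 differed from vehicle by 1.66 in HenGC and 1.59 in SoyGC, and HenGC minus SoyGC was 0.07 with a 95% interval from -0.33 to 0.47. STR3 differed by 1.15 and 1.05 (interval of the direct difference -0.13 to 0.34), MEP1 by -1.01 and -1.15 (-0.21 to 0.50) and RCK1 by -1.49 and -1.83 (-0.17 to 0.85). These intervals do not show that the preparations act alike.

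The widest gaps among the lower genes were in MF(ALPHA)2 and CLB6. MF(ALPHA)2 was at -5.40, -5.66 and -5.52 in SoyGC, between the vehicle and HenGC values, and HenGC minus SoyGC was -0.75 (interval -1.03 to -0.47, adjusted p = 0.241). CLB6 was at -3.36, -3.51 and -3.23 in SoyGC, within or near the vehicle range, with a direct difference of -0.73 (-0.98 to -0.47, adjusted p = 0.241). SoyGC 1 and 2 shared a slide with vehicle 1 and 2, and HenGC 1 and 2 had their own. Slide and preparation therefore cannot be told apart on scan day 1 in the direct comparison either. TOS2 differed from vehicle by -0.58 in HenGC and -0.04 in SoyGC, and MF(ALPHA)1 by -0.70 and -0.11. Of the 53 higher genes 52 had the smaller value in SoyGC, which their selection for a rise in HenGC favours. Examples were EDS1 (1.11 and 0.39), GUT2 (0.86 and 0.24), ATG39 (0.59 and 0.11) and CAT8 (0.77 and 0.27). Of the 16 lower genes 8 had the smaller change in SoyGC. No direct difference at any of the 69 genes passed after adjustment over all genes.

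**Figure D5:**
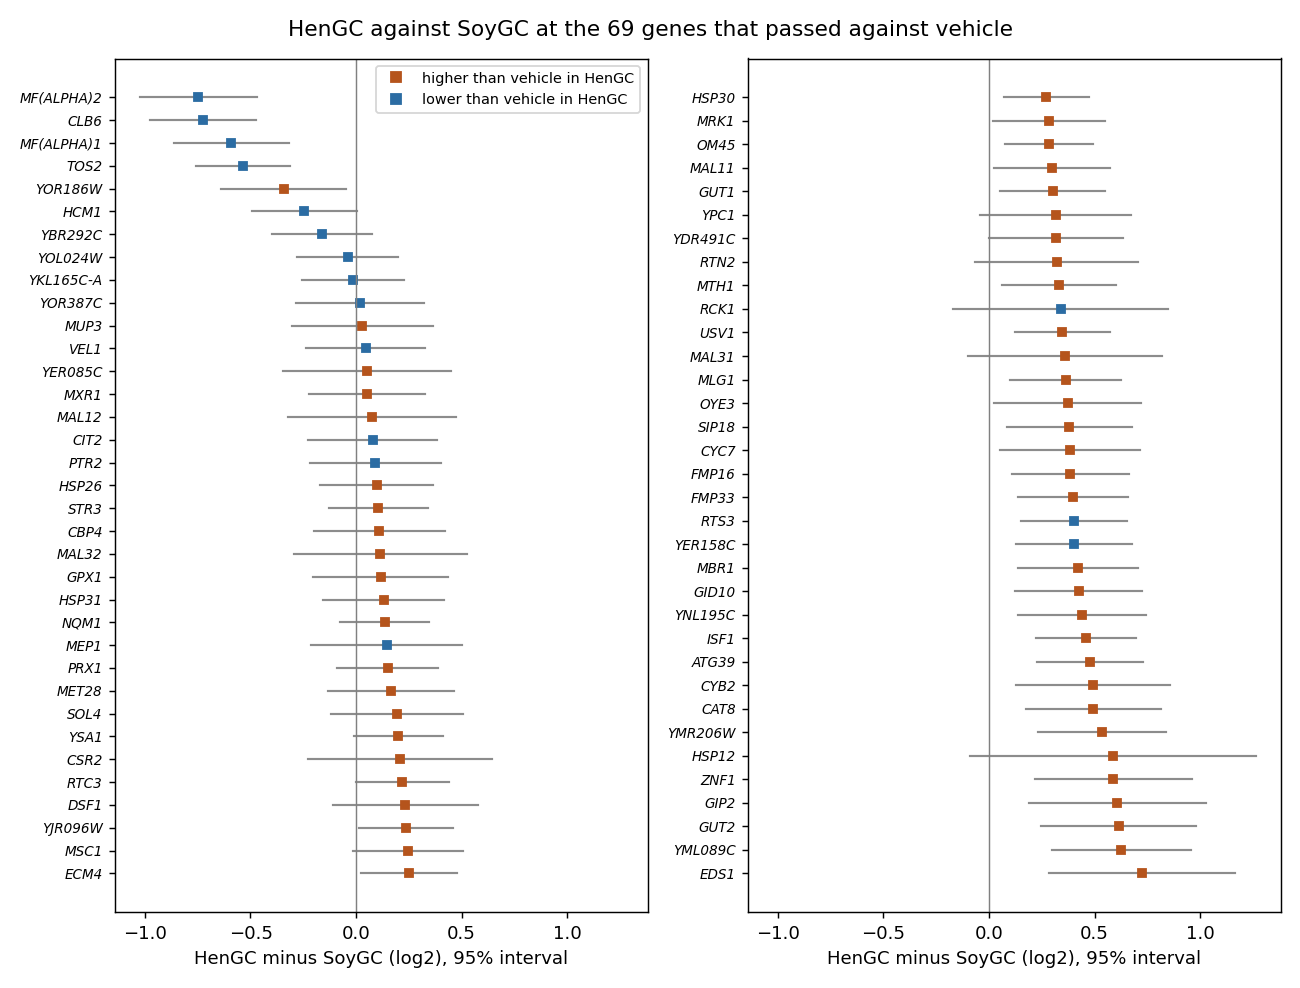
HenGC minus SoyGC (log2) with its 95% interval at the 69 genes that passed against vehicle, coloured by their direction against vehicle. MF(ALPHA)2 and CLB6 lie lowest at -0.75 and -0.73 and EDS1 highest at 0.73, and none passed after adjustment over all genes tested.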

How the data were processed

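RNA from 9 samples was hybridised to 1-colour Agilent arrays, of which 6 make up this comparison. In the deposited scanner files each spot has a processed signal, a fluorescence intensity on a linear scale. Per the file headers, the software had subtracted background and removed spatial trends within an array. R 3.0.2 and Agilent Feature Extraction 11.0.1.1 appear in the submitters' processing notes, which do not say what R did. The authors' deposited table, an alternative only, averages the linear intensity over 7 spots a probe and is not scaled between arrays.

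The processed signal was log2-transformed and centred on the 75th percentile of its array. Control and outlier spots were dropped (0.527% to 1.17%) and the rest averaged over 43792 spots of 6256 probes. Probes well above background (over 50% of spots) throughout any 1 group of 3 arrays entered the test, with the brightest for the 25 genes with several, giving 5820 of 6199 genes. The 75th percentile ranged from 5273 to 7803, and the number of arrays limits precision. It was 6852, 6447 and 6794 in vehicle 1 to 3 and 5273, 5355 and 7803 in HenGC 1 to 3. The dimmest and the brightest array were thus both HenGC arrays, on different slides. Names came from a RefSeq table of assembly R64, used for names and neighbours only, and 258 tested genes are absent from it.

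A mean per group was fitted to 9 arrays with limma 3.58.1 (lmFit, eBayes) in R 4.3.3, with Benjamini-Hochberg adjustment over all genes tested. The fit was also run on simulated data with independent noise on each array. That simulation held no slide or scan day effect and no deviating array, so it does not cover those features of the data. Lists are described by counts and medians without a test. Every gene past the threshold may be named, with values per array for the largest changes, as may up to 6 genes of smallest p per list, all sphingolipid genes, up to 10 genes passing without vehicle 3 alone, and strain markers. HSP104, MAL13, MAL33, IMA1 and IMA5 fall outside this rule and were chosen after their values were seen. The comparison, the genes and the 47 lists were chosen with earlier results of these data known. Alternatives were another normalization, background correction, the authors' table, no filter on dim probes, blocks, array weights and leaving out each array. Same-numbered vehicle and HenGC arrays deviated together at correlations of 0.29, 0.04 and 0.18, and differently numbered ones at -0.29 to 0.25. These ranges overlap and do not settle whether the numbers are pairs. The labels state no pairs, and none were taken.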

Additional observations from a re-analysis of the deposited data

How the results depend on the processing

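All 69 genes kept their direction under the 20 alternatives, which for those that leave out arrays follows from groups that do not overlap. How many genes passed in HenGC against vehicle did not hold. limma passed 39 genes after quantile normalization, 45 with no filter on dim probes, 6 with the 6 arrays of both groups alone and 3 in the authors' table, where the median of all genes moved to -0.15. With scan day as a block 125 passed (74 higher, 51 lower), with the slide as a fixed block 0, and with array weights, which gave vehicle 3 a weight of 0.147, 875 (422 higher, 453 lower). Normexp on median signals, chosen after seeing the data because the planned mean-signal column was not in the files, passed 62, the slide as a random block 64 and the scan day 1 arrays alone 64. Leaving out 1 array gave 3 to 50 genes. With the replicate block, a pairing that the labels do not state, 83 passed (51 higher, 32 lower) against 69, and 0 in HenGC against SoyGC. HenGC against SoyGC gave 1 gene with no filter on dim probes, 21 with array weights, and 0 in the other alternatives, leave-one-out fits included. The isomaltase genes IMA1 and IMA5, which did not pass, changed sign: the first, at 0.28 with all arrays, was -0.043 with the slide as a fixed block, and the second, at -0.14, was 0.0068 on scan day 1 alone. The 17 higher genes lost without vehicle 3 then had adjusted p of 0.0544 to 0.0912, and the 11 lower ones 0.0544 to 0.0867, and over all alternatives these ranged from 0.000993 to 0.536 and from 0.00148 to 0.546. The cause of these changes was not tested. With 3 arrays a group, and HenGC 1 and 2 alone on their slide, a gene that missed the threshold is not shown to be unchanged.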
